A study of Mus musculus with 96 samples.

Results

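Core promoters, the stretches around transcription start sites, were examined where bisulfite sequencing placed them at low methylation. Of 32934 regions in the 4 deposited tables of radiation and diet contrasts, 27872 lay within 1 kb of an annotated start. Of these, 16187 had a mean level of the groups under 10%. They were selected on the methylation levels themselves, so levels, differences and p-values of these tables are given as a description and support no test. They made up 49.1% of all listed regions and 58.1% of the core promoter regions, and covered 13660 distinct positions and 5605 gene symbols. The study used C57Bl/6 mice that were irradiated (Irr) or not (Ctrl) and fed a high fat diet (HFD) or chow. Reduced representation bisulfite sequencing, which reads methylation of cytosines in fragments cut at MspI sites, was run on the stromal vascular fraction (SVF), the mixed cells of fat tissue other than adipocytes, and on satellite cells, the stem cells of muscle. SVF had 7 Irr HFD, 4 Irr chow, 7 Ctrl HFD and 6 Ctrl chow libraries, and satellite cells had 6 libraries in each of the same 4 groups. RNA sequencing and capture of methylated DNA were run on satellite cells only, with 6 libraries per group. The sources used here do not give dose, sex, age or which libraries came from 1 animal.

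Cytosine methylation in mammals sits mostly at CpG dinucleotides. Promoters of widely expressed genes usually lie in CpG islands, GC-rich stretches that keep their CpGs and are normally free of methylation in somatic cells. Dense methylation of such a promoter goes along with silencing, as on the inactive X chromosome and at imprinted genes. Low levels at such promoters are therefore the usual state in somatic tissue.

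The tables held the authors' level of each of 2 groups, their difference and a p-value for each region. Neither the headers nor the labels say which libraries formed group 1 and which formed group 2, so directions are given as coded, group 1 minus group 2, in percentage points. Differences are those the authors listed, which departed from the difference of the listed levels by at most 0.720 points among the members. At positions listed with the same start and end in the radiation and diet tables, the group 1 level was identical at 2912 of 2987 SVF positions and at 4935 of 5003 satellite cell positions. The group 2 level was identical at 0 of them. Both contrasts of a cell type thus shared group 1, and their values are set side by side without a measure of overlap. A low level is that of the listed region: 26.2% to 51.9% of member genes, depending on the table, also had a core promoter region that was not low. No column held a single library, so spread between mice and read depth are unknown. The sources used here do not say how sites were joined into regions, or whether the levels are fitted estimates. Of 32 fixed marker genes for 7 cell types of muscle and fat, 4 had a member. The bisulfite tables held no expression level by which the cells could be checked. The marker Cd82 of satellite cells had its higher member at 2.15% in group 1 and 0.0834% in group 2 of the deposited satellite cell radiation table. Zfp423, a zinc finger gene of adipocyte precursors, reached 0.0194% in group 1 and 2.195% in group 2 of the deposited satellite cell diet table. That member lay 294 bases past the start, and all Zfp423 members of satellite cells, in radiation and diet, were higher in group 2. In SVF radiation the Zfp423 member lay at another position, 711 bases past the start. It was on the other side, at 0.496% in group 1 and 0.00495% in group 2. The satellite cell marker Chrdl2 and the adipose progenitor marker Pparg had members in both SVF tables, each higher in group 2 by under 1 point.

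To show what such promoters look like, the members with the largest differences that lay wholly inside a promoter window are printed first, 2 from each table. Windows of 300 bases, from 250 before to 50 after each start, come from RefSeq (build GRCm38.p6, the same assembly as mm10) and read 5′ to 3′ on the gene's strand. Capitals mark the CpGs inside the member. Gemin8, a subunit of the complex that assembles spliceosomal particles (window chrX:166170204-166170503, plus strand), held 18 CpGs, of which 13 lay in the member. Zbtb24, a zinc finger gene (window chr10:41450108-41450407, plus strand), had a member of a single base, at 1 of its 18 CpGs. Ypel3 (window chr7:126776713-126777012, plus strand) held 28 CpGs, with 18 in the member. The zinc finger gene Patz1 (window chr11:3290207-3290506, plus strand) held 33 CpGs and again a member of 1 base. Dhx9, an RNA helicase (window chr1:153487611-153487910, minus strand), had 2 of 22 CpGs in its member. Pkdcc, a secreted kinase (window chr17:83215033-83215332, plus strand), had 3 of 42. Anln, the cytokinesis protein anillin (window chr9:22389157-22389456, minus strand), had 3 of 30. Bcl2l11, the pro-apoptotic protein Bim (window chr2:128127325-128127624, plus strand), had 1 of 38.
Gemin8: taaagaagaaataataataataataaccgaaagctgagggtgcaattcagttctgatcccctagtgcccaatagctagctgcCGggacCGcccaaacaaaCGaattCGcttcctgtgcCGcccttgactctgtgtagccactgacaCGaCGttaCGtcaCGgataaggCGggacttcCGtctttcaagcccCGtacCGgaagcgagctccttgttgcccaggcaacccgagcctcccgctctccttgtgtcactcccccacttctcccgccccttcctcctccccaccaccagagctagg
Zbtb24: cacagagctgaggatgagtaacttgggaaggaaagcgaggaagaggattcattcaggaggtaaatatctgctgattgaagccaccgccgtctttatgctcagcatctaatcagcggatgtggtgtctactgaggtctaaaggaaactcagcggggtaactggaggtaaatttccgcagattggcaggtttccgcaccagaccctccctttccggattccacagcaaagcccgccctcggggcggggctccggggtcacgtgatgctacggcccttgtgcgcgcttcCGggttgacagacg
Ypel3: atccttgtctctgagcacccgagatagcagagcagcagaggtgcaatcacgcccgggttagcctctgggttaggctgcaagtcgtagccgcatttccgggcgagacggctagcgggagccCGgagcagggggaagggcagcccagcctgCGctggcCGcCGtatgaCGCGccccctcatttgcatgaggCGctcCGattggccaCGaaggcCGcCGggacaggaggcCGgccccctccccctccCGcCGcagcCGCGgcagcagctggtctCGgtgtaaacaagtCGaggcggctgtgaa
Patz1: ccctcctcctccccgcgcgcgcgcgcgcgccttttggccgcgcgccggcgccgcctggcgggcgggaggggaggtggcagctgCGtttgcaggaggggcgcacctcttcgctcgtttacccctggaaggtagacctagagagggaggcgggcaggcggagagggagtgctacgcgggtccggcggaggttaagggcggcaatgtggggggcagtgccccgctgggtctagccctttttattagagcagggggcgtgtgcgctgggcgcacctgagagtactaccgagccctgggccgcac
Dhx9: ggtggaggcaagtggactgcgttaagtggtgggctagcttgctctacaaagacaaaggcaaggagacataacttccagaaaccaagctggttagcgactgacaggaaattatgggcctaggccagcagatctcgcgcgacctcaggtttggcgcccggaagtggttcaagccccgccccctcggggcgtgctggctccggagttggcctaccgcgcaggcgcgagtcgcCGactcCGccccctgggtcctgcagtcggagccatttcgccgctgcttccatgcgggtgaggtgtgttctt
Pkdcc: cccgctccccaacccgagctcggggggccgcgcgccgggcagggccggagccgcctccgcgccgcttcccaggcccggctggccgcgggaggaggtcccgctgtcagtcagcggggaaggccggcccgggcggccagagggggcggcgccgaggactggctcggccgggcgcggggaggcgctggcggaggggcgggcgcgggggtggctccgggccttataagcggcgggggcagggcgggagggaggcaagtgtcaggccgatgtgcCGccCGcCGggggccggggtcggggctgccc
Anln: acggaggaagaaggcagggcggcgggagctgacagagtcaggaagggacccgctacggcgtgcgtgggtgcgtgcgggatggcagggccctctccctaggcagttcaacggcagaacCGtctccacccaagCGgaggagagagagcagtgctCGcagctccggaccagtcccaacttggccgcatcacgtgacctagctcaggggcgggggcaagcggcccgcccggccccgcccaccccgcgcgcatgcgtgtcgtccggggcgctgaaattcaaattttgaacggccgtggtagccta
Bcl2l11: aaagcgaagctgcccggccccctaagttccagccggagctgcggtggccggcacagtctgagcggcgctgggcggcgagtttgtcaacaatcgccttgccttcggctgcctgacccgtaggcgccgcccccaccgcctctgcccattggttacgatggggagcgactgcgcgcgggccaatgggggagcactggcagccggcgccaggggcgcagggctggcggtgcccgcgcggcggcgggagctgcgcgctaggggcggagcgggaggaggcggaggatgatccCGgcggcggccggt
In the authors' deposited SVF radiation table the Gemin8 member stood at 19.1% in group 1 and 0.0558% in group 2, and the Zbtb24 member at 0.407% in group 1 and 19.3% in group 2. In their SVF diet table Ypel3 stood at 0.0686% in group 1 and 19.9% in group 2, and Patz1 at 0.0471% in group 1 and 19.9% in group 2. In their satellite cell tables, Dhx9 (19.1% in group 1, 0.283% in group 2), Pkdcc (18.9% and 0.505% in the same order), Anln (19.6% and 0.147%) and Bcl2l11 (19.6% and 0.262%) were all higher in group 1. Each of these 8 had a single group near the ceiling the rule allowed and the other under 1%.

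Most members differed little between the groups. The SVF radiation table held 3461 members, of which 1784 were higher in group 1 and 1677 in group 2, a share of 51.5% higher in group 1. Their median difference in size was 0.266 points, with quartiles of 0.132 and 0.570, and 85.2% differed by under 1 point. The other 1241 core promoter regions of that table had a median size of 37.8 points, and 90.9% of them were higher in group 1. The rule itself sets part of this gap, since a mean under 10% holds a difference under 20 points.

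Satellite cells gave nearly even sides in both tables. Of 4320 members of the satellite cell radiation table, 2198 were higher in group 1, 2103 were higher in group 2, and 19 had equal levels. Of 4585 members of the satellite cell diet table, 2467 were higher in group 1, 2101 in group 2, and 17 had equal levels. The radiation share higher in group 1, 50.9%, lay on the other side of even under 3 other choices of regions, at 47.5% to 49.2%. The median sizes were 0.396 points for radiation and 0.394 points for diet, and 13.98 and 3.30 points with a mean level under 0.2. Differences of under 1 point made up 73.0% of the radiation members and 74.2% of the diet members.

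SVF diet stood apart in its values. Of its 3821 members, 846 were higher in group 1 and 2975 in group 2, so only 22.1% were higher in group 1. The median size was 0.894 points, with an upper quartile of 15.5 points. Both depend on the choice of regions. The share was 36.0% with a mean level under 0.2. It was 14.4% with 1 region per gene symbol, the one with the lowest p-value, and 2.06% for the lower p-values, so both settings select on p-value. The median size was 17.1 points with a mean level under 0.2 and 0.387 points with one under 0.05. Among the other 2481 core promoter regions of the same table, 59.5% were higher in group 1. The rule itself sets part of that difference between the sets, which was not tested. A group 1 level of 30 to 40% stood at 1305 core promoter regions, all left out by a mean under 10%. Of 1901 with a group 2 level of 16 to 22%, 926 were members. Whether the uneven sides of the members exceed the spread between mice cannot be told from group levels.

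**Figure D1:**
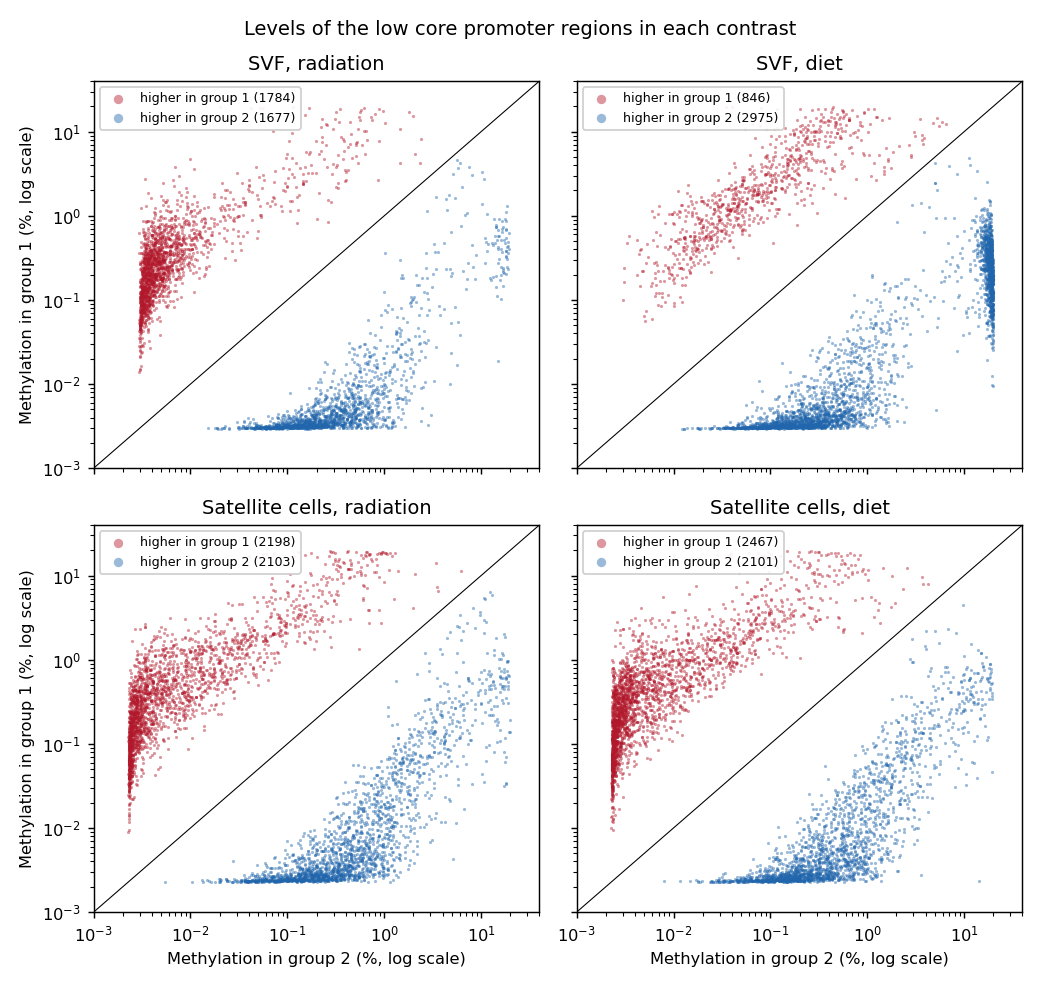
Methylation level of each low core promoter region in group 1 (vertical, percent, log scale) against group 2 (horizontal, percent, log scale) in the 4 deposited tables. Points above the line were higher in group 1, and the dense column near 20% in group 2 of SVF diet belongs to the 1048 members that were higher there by at least 10 points.

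Levels sat close to zero and shared a lowest value, and whether they are fitted estimates is not known. The lowest level in the authors' deposited tables was 0.00295% in group 1 and 0.00296% in group 2 of SVF radiation, and 0.00229% in both groups of satellite cells. The group 1 level was within 10% of that lowest value in 533 members of SVF radiation, 617 of SVF diet, 420 of satellite cell radiation and 428 of satellite cell diet. For group 2 the same held in 251, 4, 438 and 523 members, in the same order of tables. Group 2 of SVF diet thus almost lacked members at the lowest value. Both groups were under 1% in 84.9% of SVF radiation members, 51.0% of SVF diet members, 72.7% of satellite cell radiation members and 73.8% of satellite cell diet members. At the 1384 SVF members listed at identical positions and with an identical group 1 level in both tables, the median level was 0.00515% in group 1, 0.132% in group 2 of radiation and 0.398% in group 2 of diet. The 90th percentile there was 0.397% in group 1, 0.655% in group 2 of radiation and 19.2% in group 2 of diet. At the 962 such satellite cell members the 90th percentiles were 0.0177%, 1.09% and 1.14%, in the same order. The rule bears on this difference between the cell types. In satellite cell diet, 1417 core promoter regions had a group 2 level of 30 to 40%, against 14 in SVF diet. A mean under 10% leaves such regions out, so the high tail in group 2 of diet is not particular to SVF.

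Differences of at least 10 points were few in 3 tables and many in SVF diet. SVF radiation had 31 such members higher in group 1 and 69 higher in group 2, together 2.89% of members, where 30.7% of all regions in that table differed by as much. SVF diet had 85 higher in group 1 and 1048 higher in group 2, together 29.7% of members, where the share over all its regions was 60.4%. Satellite cell radiation had 76 and 90, or 3.84%, beside 51.9% over all regions, and satellite cell diet had 74 and 84, or 3.45%, beside 47.9%. These shares follow from the selection on level and are not read further. The 1048 SVF diet members with higher group 2 levels lay at 968 genes, with a median of 18.6% in group 2 (quartiles 17.2% and 19.3%) and a median of 0.239% in group 1. Their median width was 43.5 bases and 11.5% were single bases. Of the 69 SVF radiation members on the same side, 60.9% were single bases, with a median of 16.1% in group 2 and 0.428% in group 1.

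**Figure D2:**
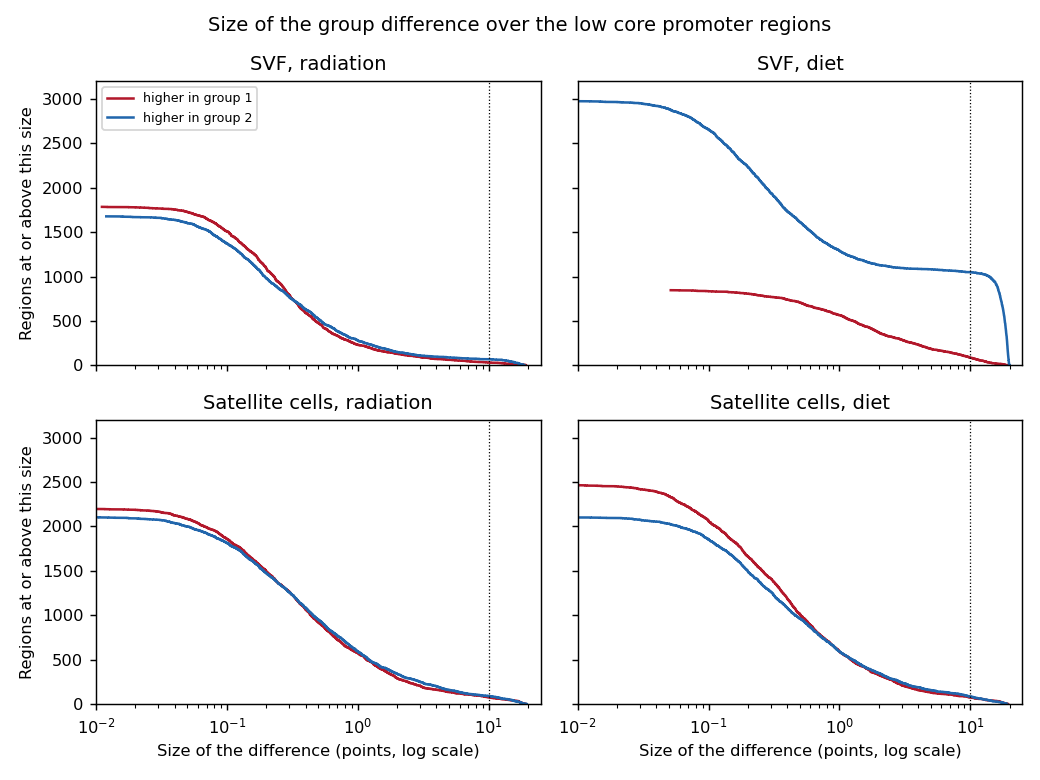
Number of members (vertical) whose difference reached the size on the horizontal axis (points, log scale), for members higher in group 1 and in group 2, with a dotted line at 10 points. Curves for the groups run together in both satellite cell tables, while in SVF diet the group 2 curve holds a plateau of 1048 members at 10 points against 85 for group 1.

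The 10% boundary cut these tables at different places. In SVF diet, 989 core promoter regions had a mean level of 8 to 10% and 998 of 10 to 12%, so the boundary ran through a peak. In the same bands SVF radiation had 55 and 40 regions, satellite cell radiation 97 and 195, and satellite cell diet 70 and 158. Of 1901 core promoter regions in SVF diet with a group 2 level of 16 to 22%, 926 were members. Just inside the boundary of the deposited SVF diet table lay Prdm2, a histone methyltransferase gene, with a mean of 9.997%, and Pkm, the muscle pyruvate kinase gene, whose member stood at 0.506% in group 1 and 19.5% in group 2. Just outside lay Nsd1, also a histone methyltransferase gene, at 0.188% in group 1 and 19.8% in group 2, and Rtn4, a reticulon gene, at 0.0882% in group 1 and 19.9% in group 2. In SVF radiation the nearest inside were Sh3bp1 and Zbtb24 with means of 9.93% and 9.86%, and the nearest outside were Sept11 and Coq7 with means of 10.1% and 10.2%. In satellite cell radiation Ap1s2 and Pak1 lay just inside with means of 9.98% and 9.97%, and Tmem170b lay just outside at 10.01%. In satellite cell diet Fam13b and Bcl2l11 lay just inside at 9.94% and 9.93%, and Fam193a and Atxn3 just outside at 10.004% and 10.01%.

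**Figure D3:**
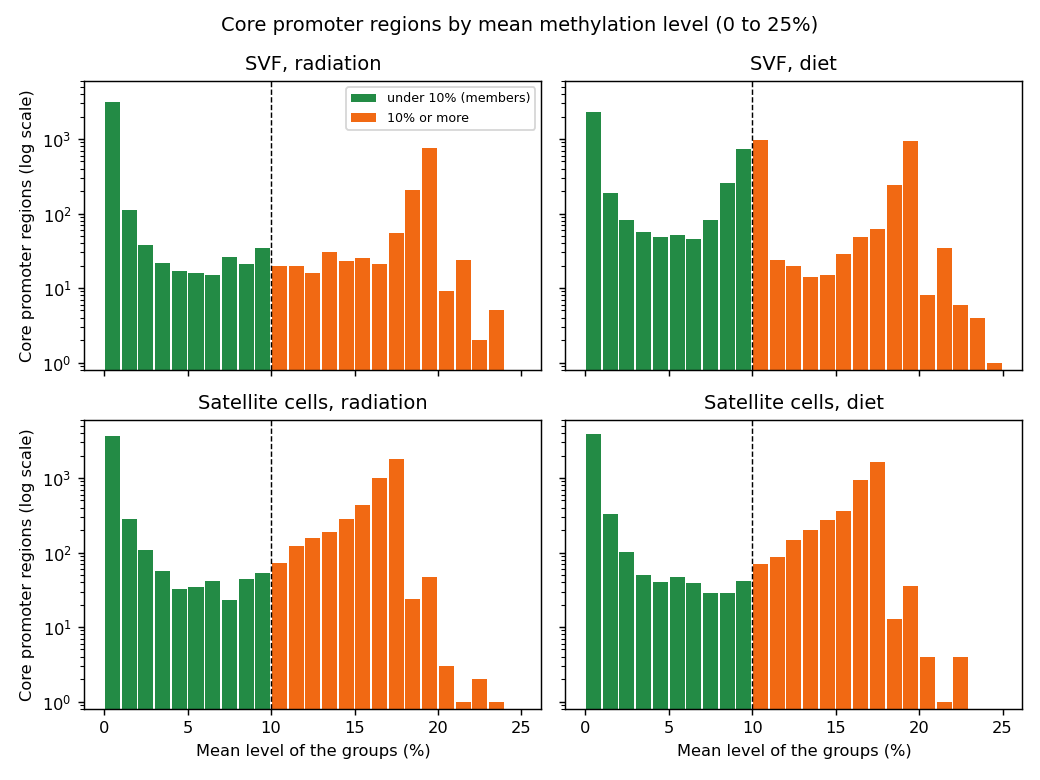
Number of core promoter regions (vertical, log scale) by the mean level of the groups (horizontal, percent, bins of 1 point up to 25%), with the members left of the dashed line at 10%. A peak straddles the line in SVF diet, and the other tables are sparse there.

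Among the named members of SVF radiation, those higher in group 1 were led by Ubr3, a ubiquitin ligase gene, at 19.4% in group 1 and 0.0200% in group 2 of the authors' deposited table. Zbtb16, a zinc finger transcription factor gene, followed at 19.4% in group 1 and 0.0420% in group 2. Det1, whose product belongs to a ubiquitin ligase complex, stood at 19.4% in group 1 and 0.114% in group 2. Txnl4a, which encodes a spliceosomal protein, was also among the 5 highest. In the deposited diet table, the region that overlaps the Zbtb16 member stood at 0.224% in group 1 and 20.2% in group 2, on the other side, as did those at Gemin8 (0.297% in group 1, 17.3% in group 2) and Txnl4a (0.111% in group 1, 19.6% in group 2). The overlapping regions of Ubr3 (38.4% in group 1, 0.175% in group 2) and Det1 (38.5% in group 1, 0.0447% in group 2) lay on the same side as in radiation. Besides Zbtb24, the lowest differences of SVF radiation belonged to Tmem216, a gene of primary cilia (0.235% in group 1, 18.97% in group 2), Sh3bp1, Setd8 and Pcid2. Setd8, which encodes the histone H4 lysine methyltransferase of the cell cycle, stood at 0.364% in group 1 and 18.98% in group 2. Pcid2, a gene of nuclear RNA export, was listed at the same 2 bases in both SVF tables, with 0.440% in group 1, 18.9% in group 2 of radiation and 0.0137% in group 2 of diet.

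In the deposited SVF diet table the lowest differences belonged to Prdm2 (0.0276% in group 1, 19.97% in group 2), Fam3c, Zfp704, Ppp2r5c and Smad1. Fam3c, which encodes a secreted factor, stood at 0.0327% in group 1 and 19.9% in group 2, while group 2 of radiation had 0.00370% at the same base. Ppp2r5c, a regulatory subunit gene of protein phosphatase 2A, stood at 0.00944% in group 1 and 19.9% in group 2. These 5 genes had differences between 19.86 and 19.95 points in size, all against the ceiling. On the other side Tbc1d15, a gene of late endosomes, had 19.8% in group 1 and 0.0397% in group 2. Kctd9 had 19.7% in group 1 and 0.0346% in group 2. Apoa1bp, which encodes an enzyme that repairs damaged NADPH, Bahd1, a heterochromatin gene, and Rora, a nuclear receptor gene of the circadian clock, completed this side with 18.4 to 19.3 points.

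In satellite cells the deposited radiation table placed Trip12, a ubiquitin ligase gene, lowest at 0.1397% in group 1 and 19.8% in group 2. Pak1, a kinase gene of the cytoskeleton, had 0.194% in group 1 and 19.7% in group 2. Runx1t1, a corepressor gene, Hmgn1, a nucleosome-binding protein gene, and Tgfbr1, the type I receptor gene for TGF-beta, followed with 18.6 to 19.3 points. Highest were Ggnbp2os (19.5% in group 1, 0.279% in group 2), Ap1s2, Mtfr2, Ankrd37 and Dhx9. Mtfr2, a gene of mitochondrial fission, was listed at the same 4 bases in both satellite cell tables, with 19.2% in group 1, 0.129% in group 2 of radiation and 0.0947% in group 2 of diet. In the deposited diet table Wdr26, a subunit gene of a ubiquitin ligase, was lowest at 0.0468% in group 1 and 19.2% in group 2. Arid3a, Snrnp70, Sin3a and Fam13b came next. Snrnp70 encodes a protein of the U1 particle and stood at 0.346% in group 1 and 19.2% in group 2. Sin3a, the scaffold gene of a histone deacetylase complex, stood at 0.405% in group 1 and 19.2% in group 2. Kat8, a histone H4 acetyltransferase gene, and Tnpo3, a nuclear import gene, were high in group 1 of that table, at 19.3% and 19.1%, against 0.286% and 0.250% in group 2.

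Members often lay beside core promoter regions that the rule left out. For radiation in satellite cells, 1766 pairs of consecutive core promoter regions lay with fewer than 20 bases between them, and in 1683 of these (95.3%) only 1 of the pair was a member. In the satellite cell diet table it was 1606 of 1711 (93.9%), in SVF radiation 319 of 351 and in SVF diet 397 of 429. When both were members, they lay on opposite sides in every pair, with 57, 87, 32 and 24 such pairs in those tables. Regions of a single base lay directly side by side in 72 pairs of satellite cell radiation, 75 of satellite cell diet, 5 of SVF radiation and 8 of SVF diet. All of these pairs had opposite signs. One base of the pair was a member and the other was not in 71, 75, 4 and 7 of them. The opposite sides and signs are a description, since how sites were joined into regions is not given. Whether the joining set them was not tested. Among 868 single-base members inside a RefSeq window, 457 sat at the C of a CpG, 408 at its G, which is the cytosine of the other strand, and 3 elsewhere. Of the member genes, 1408 of 2714 in satellite cell radiation, 1382 of 2816 in satellite cell diet, 1035 of 2639 in SVF diet and 619 of 2359 in SVF radiation also had a core promoter region that was no member. In satellite cells Ctcf, the gene of an insulator protein that binds unmethylated DNA, had 0.101% in group 1 at base 105636871 of chromosome 8, with 0.00240% in group 2 of radiation and 34.6% in group 2 of diet in the authors' deposited tables. At the next base it had 0.0978% in group 1, with 34.6% in group 2 of radiation and 0.00239% in group 2 of diet. Elsewhere group 1 switched: at Sgk3, a kinase gene, the member base had 0.00248% in group 1 and the base after it 39.6%, while group 2 of radiation had 0.0512% and 0.0450%. In SVF the same was seen at Cux1, a homeobox gene, with 0.00845% and then 36.8% in group 1, and 0.797% and 0.602% in group 2 of radiation. Ctcf, Sgk3 and Cux1 were chosen after their values were seen. In these pairs a low level at the member base did not carry over to its neighbour.

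Rabgef1, an exchange factor gene of early endosomes, shows this pattern and was picked after its values were seen. Its window (chr5:130171569-130171868, plus strand, RefSeq, GRCm38.p6) holds 37 CpGs, and capitals mark the 16 CpGs in the regions that the satellite cell radiation table listed from 130171734 to 130171803. The last region of the row runs past the end of the window and is left in lower case.
Rabgef1: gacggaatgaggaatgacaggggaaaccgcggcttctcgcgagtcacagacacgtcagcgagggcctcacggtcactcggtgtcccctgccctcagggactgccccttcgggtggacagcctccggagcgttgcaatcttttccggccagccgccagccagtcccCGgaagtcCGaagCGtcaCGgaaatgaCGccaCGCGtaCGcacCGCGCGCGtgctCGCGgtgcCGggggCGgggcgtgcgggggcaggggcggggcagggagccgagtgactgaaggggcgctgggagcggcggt
From 130171734 on chromosome 5, the authors' deposited radiation table listed 14 regions in a row, 7 of them members, and their diet table listed 12, 6 of them members. The 7 members of radiation had group 1 levels of 0.0936 to 0.744% and group 2 levels of 0.00230 to 0.0269%. The 7 regions between them had group 1 levels of 0.118 to 0.452% and group 2 levels of 33.5 to 34.7%. At the single base 130171767 the levels were 0.161% in group 1, 0.00236% in group 2 of radiation and 34.6% in group 2 of diet. At the next base, 130171768, they were 0.163% in group 1, 34.6% in group 2 of radiation and 0.00236% in group 2 of diet. Group 1 stayed under 1% along the row, and group 2 alternated between values under 0.03% and values over 33%. Where both contrasts listed the same region, the high value stood in only 1 of them.

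**Figure D4:**
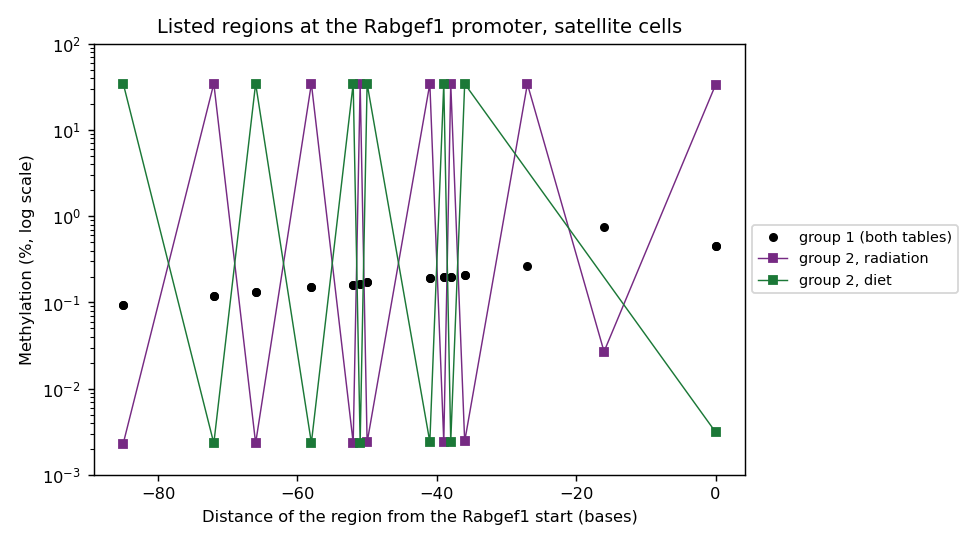
Methylation (vertical, percent, log scale) of the listed satellite cell regions by their distance from the Rabgef1 start (horizontal, bases), with group 1 as dots and group 2 of each contrast as squares. Group 2 switched between about 0.002% and about 35% from region to region, while group 1 stayed between 0.0936 and 0.744%.

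Gene groups were counted over 23 lists of pathways and families, which were chosen with earlier results known. The median signed difference over all SVF diet members was -0.311 points. Cytosolic ribosomal protein genes had 91 members over the 4 tables, 45 higher in group 1 and 46 in group 2. In SVF diet, 11 of their 23 members (47.8%) were higher in group 2 by at least 10 points, where 27.4% of all SVF diet members were, and their median was -1.81 points. Examples from the authors' deposited table were Rps24 (0.0480% in group 1, 19.8% in group 2), Rpl36 (0.0532% and 19.7%) and Rplp0 (0.166% and 19.6%). For insulin signalling and glucose use it was 8 of 17 (47.1%) with a median of -0.793 points, among them Tbc1d4, which controls glucose transporter traffic, at 0.178% in group 1 and 19.7% in group 2, and hexokinase gene Hk2 at 0.233% in group 1 and 19.6% in group 2. In the same SVF diet table, the ubiquitin proteasome list had 23 of 66 (34.8%), solute carriers 21 of 68 (30.9%) and zinc finger (Zfp) genes 25 of 85 (29.4%). Among the lists below the share of all members were splicing factors with 5 of 27 (18.5%), Tmem genes with 8 of 39 (20.5%), microRNA genes with 4 of 18 (22.2%), histone modifiers with 11 of 48 (22.9%), translation factors with 8 of 32 (25.0%) and Mediator subunits with 3 of 12 (25.0%). Lists hold few regions each, and no test was made of them.

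The smaller lists are read against the same 27.4% of all SVF diet members, and several lay near it. DNA methylation machinery had 6 of 18 (33.3%) SVF diet members higher in group 2 by at least 10 points, among them Dnmt3a, the de novo methyltransferase gene, at 0.0613% in group 1 and 19.1% in group 2, and Uhrf1, the cofactor gene of maintenance methylation, at 0.151% in group 1 and 19.1% in group 2. Cell cycle genes had 7 of 20 (35.0%), with the transcription factor gene E2f1 at 0.0759% in group 1 and 19.8% in group 2 and the inhibitor gene Cdkn1b at 0.153% in group 1 and 19.8% in group 2 of the deposited table. DNA repair and p53 genes had 4 of 12 (33.3%), with the ligase genes Lig3 at 0.208% in group 1 and 19.8% in group 2 and Lig4 at 0.257% in group 1 and 17.3% in group 2. Adipogenic regulators had 2 of 7 (28.6%), led by the nuclear receptor gene Rxra at 0.0440% in group 1 and 19.6% in group 2. Wnt and Notch genes had 6 of 19 (31.6%) in that direction and 1 in the other, which was Ctnnb1, the beta-catenin gene, at 18.5% in group 1 and 0.202% in group 2. Developmental transcription factors had 7 of 25 (28.0%), including Lhx2 and Hoxa13, oxidative phosphorylation genes 6 of 19, mitochondrial ribosomal proteins 5 of 15, and histones 1 of 3, the replacement histone gene H3f3a. Myogenic and satellite cell genes had 3 of 5, namely Cxcr4, Ncam1 and Mef2a, with a median of -17.03 points, while imprinted genes had 0 of 3 and protocadherins had no SVF diet member. Imprinted genes, which carry methylation on a parental allele, had 9 members in all 4 tables together.

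SVF and satellite cells had different libraries, and their lists are set beside each other. Whether these libraries came from the same mice is not given, so the lists may not be independent. Of 5848 distinct SVF member positions, 1242 (21.2%) overlapped a satellite cell member by at least 1 base, and of 7931 satellite cell positions 1300 (16.4%) overlapped an SVF member. Among the other core promoter regions these shares were 21.7% of SVF and 11.2% of satellite cell positions, and among all listed regions 25.5% and 21.5%. By gene symbol, 1539 genes were in both, which was 46.7% of 3299 SVF genes and 40.0% of 3845 satellite cell genes. Genes of the other core promoter regions were shared at 46.3% of SVF and 27.2% of satellite cell genes, and genes of all listed regions at 53.2% and 48.2%. The sets differ in size, and their shares were not tested against each other. Among these, 8 genes had the largest mean difference over their members, from 13.2 points for Smad1 to 11.5 points for Tigd5 and Zbtb11os1. Windows that held a member are printed for the 4 of these genes that had one, with the member's CpGs in capitals. They are Smad1 (chr8:79399379-79399678, minus strand), Cnksr3 (chr10:7212188-7212487, minus strand), Arfgef2 (chr2:166805331-166805630, plus strand) and Atp1b3 (chr9:96364382-96364681, minus strand), all from RefSeq, GRCm38.p6.
Smad1: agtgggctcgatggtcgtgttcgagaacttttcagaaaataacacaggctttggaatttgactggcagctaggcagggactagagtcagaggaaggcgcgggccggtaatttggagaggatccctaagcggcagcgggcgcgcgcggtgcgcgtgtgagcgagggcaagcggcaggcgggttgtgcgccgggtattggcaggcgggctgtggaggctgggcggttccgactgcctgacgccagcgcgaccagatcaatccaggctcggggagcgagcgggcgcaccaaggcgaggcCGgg
Cnksr3: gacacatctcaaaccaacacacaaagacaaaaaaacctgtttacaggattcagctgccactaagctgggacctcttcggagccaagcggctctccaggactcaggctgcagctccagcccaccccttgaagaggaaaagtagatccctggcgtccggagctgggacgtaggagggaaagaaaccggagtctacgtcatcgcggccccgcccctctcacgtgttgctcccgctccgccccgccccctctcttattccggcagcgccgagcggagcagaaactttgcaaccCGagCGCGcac
Arfgef2: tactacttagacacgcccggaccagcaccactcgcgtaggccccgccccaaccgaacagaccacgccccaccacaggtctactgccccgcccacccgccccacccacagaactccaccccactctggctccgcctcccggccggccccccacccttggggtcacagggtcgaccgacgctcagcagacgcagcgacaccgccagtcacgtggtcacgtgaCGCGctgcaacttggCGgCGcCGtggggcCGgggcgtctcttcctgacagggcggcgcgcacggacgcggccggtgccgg
Atp1b3: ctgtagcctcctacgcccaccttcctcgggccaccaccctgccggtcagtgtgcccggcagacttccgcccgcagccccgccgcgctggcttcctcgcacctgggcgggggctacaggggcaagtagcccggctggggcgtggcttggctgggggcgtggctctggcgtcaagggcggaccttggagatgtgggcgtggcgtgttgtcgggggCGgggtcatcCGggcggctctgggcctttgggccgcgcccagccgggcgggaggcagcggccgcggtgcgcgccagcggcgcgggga
Smad1, which carries signals of bone morphogenetic proteins, had 3 members in the deposited SVF diet table. Its members 649 and 423 bases past the start stood at 0.0662% and 0.0682% in group 1, against 18.8% and 19.9% in group 2. Its member 87 bases past the start, the base marked in the window, stood at 13.7% in group 1 and 0.649% in group 2. Members of 1 promoter thus lay on both sides. In satellite cells its radiation member stood at 0.00308% in group 1 and 0.978% in group 2. The satellite cell diet regions that overlap its members at 649 and 423 bases were no members. They stood at 0.0795% and 0.673% in group 1, against 34.7% and 30.3% in group 2. Atp1b3, a sodium pump subunit gene, had 0.145% in group 1 at its marked CpGs, with 0.00533% in group 2 of SVF radiation and 18.5% in group 2 of SVF diet. Its satellite cell member was 17.3% in group 1 and 0.116% in group 2 of radiation. Heatr6 and Tigd5 repeated the SVF pattern, with 0.208% and 0.177% in group 1, 0.00361% each in group 2 of radiation, and 18.8% and 19.7% in group 2 of diet. In satellite cell radiation, Tigd5 members stood at 0.531% in group 1 and 10.1% in group 2, and at 13.8% and 0.244% in the same order. The Heatr6 member of satellite cell diet stood at 0.602% in group 1 and 17.4% in group 2. The radiation region that overlaps it was no member, at 33.3% in group 1 and 0.0596% in group 2. Arfgef2, an exchange factor gene for Golgi GTPases, had 0.269% in group 1 and 18.5% in group 2 of SVF diet, and 0.0708% in group 1 and 6.51% in group 2 of satellite cell radiation. Fam110c had 0.422% in group 1 and 19.004% in group 2 of SVF diet, and in satellite cells 0.122% in group 1, 4.10% in group 2 of radiation and 13.6% in group 2 of diet. Cnksr3 had 0.575% in group 1 and 12.9% in group 2 at its marked member of SVF diet, and 0.608% in group 1 and 7.38% in group 2 of satellite cell radiation.

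Position differed little between members and the rest, while size differed more in some tables. Median distance to the annotated start was 199 bases for members and 205 for other core promoter regions in SVF radiation, 204 and 199 in SVF diet, 207 and 208 in satellite cell radiation, and 210 and 201 in satellite cell diet. Between 85.2% and 86.8% of members lay within 500 bases, 28.1% to 30.5% upstream of the start and 63.0% to 64.3% downstream. Median widths were 46 bases against 41 for other core promoter regions in SVF radiation, 33 against 43 in SVF diet, 27 against 33 in satellite cell radiation and 28 against 34 in satellite cell diet. Single bases made up 13.8% of members and 14.4% of other core promoter regions in SVF radiation, and 19.8% and 10.3% in SVF diet. In satellite cells these shares were 23.7% and 18.1% for radiation, and 23.3% and 19.8% for diet. Chromosome X held 3.93% to 4.42% of members.

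CpG content was measured in sequence, which the rule did not use. The 2379 RefSeq windows that held a whole member had a median of 29 CpGs, a GC content of 67.7% and a CpG observed over expected ratio of 0.880 (quartiles 0.765 and 0.994). The 1787 windows that held another core promoter region had 29 CpGs, 67.7% GC and a ratio of 0.875. Over all 32851 RefSeq promoter windows the medians were 7 CpGs, 52.7% GC and 0.384. These window sets overlap, since 1124 windows held both a member and another core promoter region, which was 47.2% of the member windows and 62.9% of the others. The 1255 windows with a member only had a median ratio of 0.872, and the 663 with another core promoter region only had 0.856. All these medians lay above the upper quartile of promoters at large, which was 0.750. Within the members' own bases, the median ratio was 0.991 over the 2046 members of at least 20 bases that lay wholly inside a window. Members outside the windows had no sequence here and are not covered. Bisulfite libraries of MspI fragments sample CpG-rich DNA, and the part of this in the excess over all promoters was not tested.

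**Figure D5:**
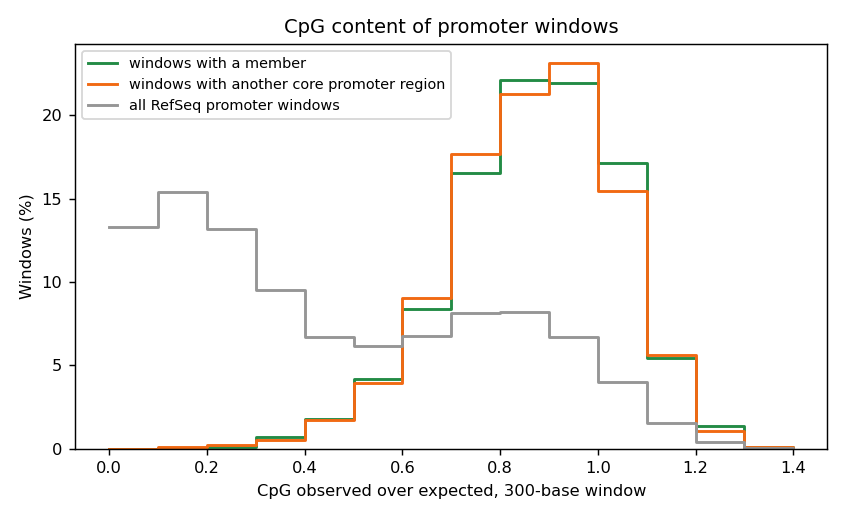
Share of promoter windows (vertical, percent) by CpG observed over expected ratio (horizontal, bins of 0.1) for windows with a member, windows with another core promoter region and all RefSeq windows. Windows with a member and windows with another core promoter region, of which 1124 are the same, have medians of 0.880 and 0.875, against 0.384 for all windows.

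Letters of known promoter motifs were searched on both strands. The GC box GGGCGG was in 80.0% of member windows, 80.8% of windows with another core promoter region and 35.7% of all promoters. The TATA box letters TATAAA were in 3.74%, 3.53% and 13.6%, in the same order. The CCAAT box, searched as CCAAT, was in 32.9%, 31.7% and 37.4%. The MspI site CCGG was in 99.7% of member windows and 52.8% of all promoters. The ETS site CCGGAAGT, which contains the MspI site, was in 9.84%, 10.3% and 3.89%. The E-box CACGTG was in 10.8%, 10.9% and 7.15%, the NRF1 core GCATGCGC in 6.01%, 5.93% and 2.71%, the cAMP response element TGACGTCA in 4.04%, 3.47% and 1.79%, and the YY1 core GATGGCGG in 4.50%, 5.04% and 1.70%. Since 1124 windows stand in both sets, the likeness of these shares is partly given by the sets.

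RNA of satellite cells is a readout the rule did not use. Over both diets, 827 of 12371 genes tested (6.68%) changed with irradiation in the authors' deposited table, where the adjusted p was under 0.05. Of 3845 genes with a satellite cell member, 191 (4.97%) were among them, 109 higher and 82 lower in irradiated mice. Of 3604 genes with another core promoter region, 172 (4.77%) were, 100 higher and 72 lower. Sides over all 827 genes were not counted. Many genes stand in both sets, 1408 of 2714 member genes in satellite cell radiation and 1382 of 2816 in satellite cell diet. The likeness of both shares is thus partly given by the sets. These shares count all genes of a list, expressed or not, since genes with an adjusted p of 0.1 or more are not listed, so they are not on the same base as the 6.68%. The 10 member genes with the largest fold changes were Igsf1, Cilp2, Usp43, Vstm2b, Krt18, Ptchd1, Lef1, Prr16, Mat2a and Crmp1. RNA values are the mean log2 fold change of both diets, Irr over Ctrl.

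In the authors' deposited table Igsf1, a cell surface gene on chromosome X, was higher after irradiation by 2.196 on the log2 scale (adjusted p = 0.000572), at a low mean level of 0.44 on the log2 CPM scale. Its 5 members had 0.287 to 1.21% in group 1 and 0.00286 to 0.0212% in group 2. Regions beside them went the other way. The base after its radiation member at 49797760 was no member, at 0.335% in group 1 and 33.6% in group 2. Cilp2, a gene of cartilage matrix, had a log2 fold change of 1.92 (adjusted p = 0.00447), and its radiation member stood at 0.281% in group 1 and 13.6% in group 2. Vstm2b had -1.31 (adjusted p = 0.00113), and its radiation member stood at 0.603% in group 1 and 17.0% in group 2. Both genes thus had their member higher in group 2, with RNA changes of opposite sign. Krt18, a keratin gene, had 1.25 (adjusted p = 0.00992), with 0.219% in group 1 and 3.94% in group 2. Lef1, a Wnt-dependent transcription factor gene, had 0.94 (adjusted p = 0.00107), and Mat2a, which makes the methyl donor S-adenosylmethionine, had -0.94 (adjusted p = 0.0136). The Mat2a members of the diet table lay on both sides, at 0.00432% in group 1 and 1.31% in group 2 beside the start, and at 2.62% in group 1 and 0.120% in group 2 farther upstream.

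Capture of methylated DNA in satellite cells gave a readout from other libraries. The deposited promoter list held 322 regions, and 48 of 8905 satellite cell members (0.539%) overlapped one, beside 47 of 7963 other core promoter regions (0.590%). The 8905 members pool radiation and diet and stand at 7931 distinct positions, and a promoter can count more than once. Rabgef1 alone gave 7 of the 48 members from radiation and 6 from diet. The 48 members belonged to 25 genes, with capture coded higher for 13 and lower for 12. Sides over all 322 listed promoters were not counted, so this split is not read further. The headers do not name the sides of the capture contrast. Rabgef1 had the largest log2 fold change in size, -2.01, followed by Lyn, a Src family kinase gene, at 2.01, Hif1a, the hypoxia factor gene, at 1.86, Tlk1 at 1.85 and Tial1 at 1.83. The Hif1a member stood at 0.107% in group 1 and 0.00235% in group 2 of the deposited diet table, and the Lyn member at 2.204% in group 1 and 0.0228% in group 2. Rffl, Rtn1, Cep162, Lrr1 and Aasdh followed, with 1.49 to 1.75. Of 84 listed CpG islands, 1 overlapped a member, the region at Krt18 named above, with a deposited fold change score of 1.49.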

How the data were processed

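Per the labels' protocols, bisulfite libraries were made from MspI digests without gel selection. Per the submitters' processing notes, Trim Galore 0.4.0, cutadapt 1.8.3, Bismark 0.14.4, Bowtie2 2.2.6 and CASAVA 1.8.2 were used with build mm10, and edgeR is named for RNA and capture. All tables were the authors' comparison statistics, with 0 columns of single samples. Per the file headers, they held a fraction methylated per group (printed as percent), a difference, a p-value, and for RNA and capture log2 fold changes. In the capture island table the deposited fold change column also held notes, so it is used as a score.

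Members met the rule in a Python 3.11.15 script with pandas 2.3.3. The members and the gene lists were chosen with earlier results of these data known. Named genes were the 5 highest and 5 lowest differences per table (1 region per gene), 2 regions on each side of the level boundary (1 of these is not reported here), up to 8 genes with members in both cell types, up to 4 per gene list, and up to 10 each from RNA and capture. Differences under 1e-10 counted as equal. The deposited RNA value over both diets was the sum of both diet effects in the 13 genes where it could be checked, and was divided by 2. The number of RNA genes tested came from adjusted p, rank and p-value. Overlaps needed 1 base. Counting was tested on simulated data. Depth is unknown, and no statistical test was made on levels.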

Additional observations from a re-analysis of the deposited data

How the results depend on the processing

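No paired analysis was possible because the tables hold comparison statistics with no column for single samples, and for the same reason no library could be left out. Of 63 alternative values for 12 results, 29 stayed within the 95% interval of the value reported, which covers counting of regions only, 31 moved outside it and 3 changed side. The share of members higher in group 1 of satellite cell radiation, 50.9%, changed side to 49.2% with a mean level under 0.2, 47.5% with 1 region per gene symbol and 48.8% with p-values at or below the median of the table. That share moved in SVF radiation to 61.9%, 53.8% and 58.5%, in satellite cell diet to 52.0%, 51.3% and 52.1%, and in SVF diet to 36.0%, 14.4% and 2.06% under these settings in the same order. In SVF diet it was 27.6% with a mean level under 0.05 and 28.0% with both levels under 0.1. The setting of 1 region per gene symbol kept the region with the lowest p-value.

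The median size moved most with a mean level under 0.2, to 0.439 points in SVF radiation, 17.1 in SVF diet, 13.98 in satellite cell radiation and 3.30 in satellite cell diet. With a mean level under 0.05 it was 0.387 in SVF diet, 0.365 in satellite cell radiation and 0.368 in satellite cell diet, and with both levels under 0.1 it was 0.393, 0.369 and 0.370. With 1 region per gene symbol it was 0.284 in SVF radiation, 0.809 in SVF diet and 0.417 in satellite cell radiation, and with lower p-values 0.354 in SVF radiation and 0.572 in SVF diet. The share of SVF members that overlap a satellite cell member was 30.3% with a mean level under 0.2, 6.16% when each region had to share at least 0.5 of its length and 51.4% by gene symbol. The share of member genes in the RNA list was 11.9% at an adjusted p under 0.1. The CpG ratio was 0.880 in RefSeq windows of 300 bases, an alternative chosen after seeing the data. Windows centred on each region were not run, since no genome was used here, nor was the share of members in the interaction tables, which come from the same libraries. The cause of each shift was not tested.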
